A study of Homo sapiens with 4 samples.

Results

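Binding of SAF-A was profiled in RPE1 cells by CUT&Tag, and the regions described here are those where recurrent SAF-A peaks crowded together on chromosomes 1 to 22. Peaks of the 4 libraries were merged if they had 1 bp or more in common, the chromosomes were divided into bins of 100 kb, and a region was kept when all 4 libraries had a peak in it and its midpoint lay in a bin with 5 or more such regions. This gave 3432 clustered regions, which were 17.3% of the 19822 regions called in all 4 libraries (recurrent regions) and 1.45% of the 236215 merged regions. They filled 567 of 29017 bins, or 1.95% of the autosomal sequence. The presence of peaks in all 4 lists chose the regions, so their number per bin is a description and not a finding.

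RPE1 is a human retinal pigment epithelial line immortalised with telomerase, labelled wild type in every sample. The groups were asynchronous cells (2 libraries) and cells synchronised in mitosis (2 libraries), numbered replicates 3 and 4 in each. How cells were synchronised is not stated by the sources at hand. Nor is it stated whether the 2 replicates of a state came from different cultures, and a p-value here therefore reflects variation among libraries that may be technical. In CUT&Tag an antibody, here against SAF-A, tethers a transposase that cuts and tags DNA near the bound protein.

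SAF-A, also called HNRNPU, is an abundant nuclear protein that binds DNA through its SAP domain and RNA through its RGG domain. It was first described as a component of the nuclear scaffold that holds DNA at attachment regions, and it is known for tethering chromatin-associated RNA in interphase and for its release from most chromatin as cells enter mitosis. The question taken from the design is whether SAF-A sites differ between cycling and mitotic cells.

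Clusters were mostly short. The 567 bins formed 432 runs of adjacent bins, of which 346 were 1 bin long and held 1972 of the regions. Another 60 runs were 2 bins long, 16 were 3 bins, 7 were 4 bins, 2 were 5 bins and 1 was 15 bins long. Most bins stood near the minimum, with 284 at 5 regions and 148 at 6, and 19 bins held 10 or more. Just outside the limit, 629 bins held 4 recurrent regions. The median summit height, given as a multiple of each library's median over recurrent regions and averaged over the libraries on the log scale, was 1.12 in bins with 4 regions and 1.22 in bins with 5.

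The crowding faded over 1 to 2 Mb around the clusters. Bins 100 kb from the nearest cluster bin held 1.94 recurrent regions on average, and those at 500 kb held 1.09. At 1000 kb the mean was 0.864, and at 2000 kb it was 0.559, close to the 0.576 over all bins that were not clusters. Bins next to a cluster have fewer than 5 such regions by construction. Successive runs on a chromosome were a median of 1300 kb apart (quartiles 300 and 5900 kb), and 57 of the 410 intervals between them were a single bin.

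Clustered regions were found on all 22 autosomes, most densely on chromosome 19. It had 298 of them in 49 bins, which was 7.93% of its bins and 4.83 regions per Mb. Chromosome 11 followed with 2.80 per Mb, chromosome 17 with 2.72, chromosome 5 with 2.12 and chromosome 22 with 2.10. Chromosomes 4, 18 and 13 had 0.108, 0.149 and 0.264 per Mb. Across the 22 chromosomes this density went with the number of RefSeq protein-coding genes per Mb (Pearson r = 0.91, Spearman rho = 0.77), a description over chromosomes in which genes were counted on GRCh38 and lengths were taken from the last peak of each chromosome on hs1. Chromosome 19 had 23.5 genes per Mb and chromosome 4 had 3.98. All recurrent regions were denser on chromosome 19 as well, with 1001 over 61.7 Mb against 516 over 193.6 Mb on chromosome 4. Clustered regions were 29.8% and 4.07% of these. How far clustered regions went with genes beyond the density of all recurrent regions was not tested. Chromosome 5, with 4.97 genes per Mb, carried more clustered regions than chromosomes of like gene number, such as chromosome 2 (5.17 genes and 0.350 regions per Mb) and chromosome 9 (5.17 genes and 1.17 regions per Mb). Chromosome 5 was also richer in recurrent regions of any kind, with 1453 over 182 Mb, against 1191 over 243 Mb and 927 over 151 Mb. Of its 386 clustered regions, 119 lay in 1 run and 53 in another, both described below.

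**Figure D1:**
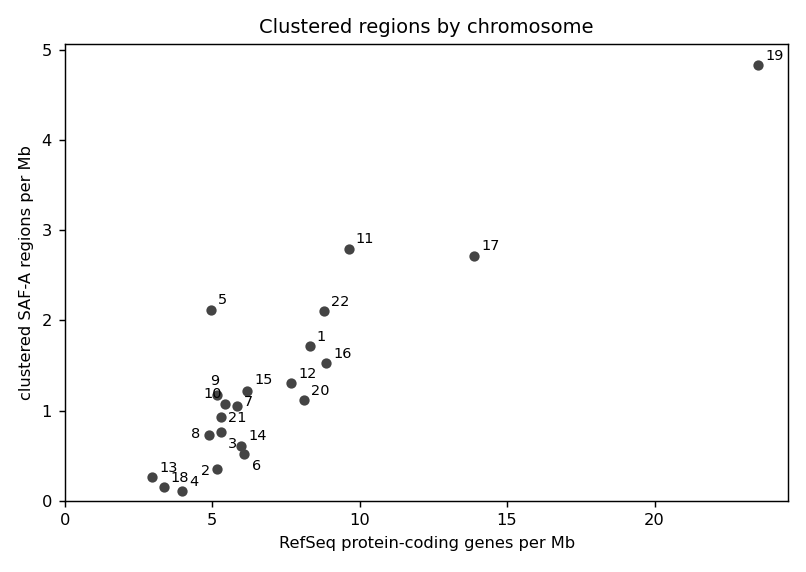
Clustered SAF-A regions per Mb (vertical axis) against RefSeq protein-coding genes per Mb (horizontal axis) for chromosomes 1 to 22, each point labelled with its chromosome. Chromosome 19 stands at 4.83 regions and 23.5 genes per Mb, and chromosome 5 lies above chromosomes of like gene density.

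The longest run covered the end of the short arm of chromosome 5, from position 1 to 1500000 of the hs1 assembly. It held 119 clustered regions, the first starting at position 297 and the last ending at 1498974, with 5 to 12 in each of the 15 bins. Midpoints of neighbouring regions lay a median of 9751 bp apart. The lists had 285 and 257 peaks there in the asynchronous replicates 3 and 4 and 248 and 323 in the mitotic replicates. Summed over the 119 regions, summit pileups (overlapping fragments at the summit) were 4481 and 4049 in asynchronous and 3898 and 6278 in mitotic cells, which followed the depth of the libraries. The median summit stood at 1.16 and 1.29 times the library median in asynchronous and 1.30 and 1.27 times in mitotic cells. The local background of the peak caller was high in this run, at 5.64 and 5.73 times the genome background in asynchronous and 5.96 and 6.37 times in mitotic cells, against 4.42, 4.43, 4.11 and 4.41 times over all clustered regions.

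Of the 10 longest runs, the one with the highest median summit was on chromosome 11 from 3200001 to 3700000, with 48 regions in 5 bins. Its first bin held 16 regions, 5383 bp apart at the median, and was the second most crowded of all. The median summit over the run was 1.98 and 2.12 times the library median in asynchronous and 2.38 and 2.12 times in mitotic cells. Local background reached 11.1 and 10.1 times the genome level in asynchronous and 11.2 and 12.025 times in mitotic cells. Close by, the bin from 3800001 to 3900000 held 14 regions and had the highest median summit of any cluster bin, at 4.28 and 4.10 times the library median in asynchronous and 4.03 and 4.35 times in mitotic cells. Over all cluster bins that median ran from 0.540, on chromosome 11 from 12200001, to 4.15 in this bin.

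Of the other 8 longest runs, 3 were on the long arm of chromosome 1, within 2 Mb of each other. They ran from 154100001 to 154500000 with 30 regions, from 155100001 to 155500000 with 28, and from 155600001 to 156100000 with 34. Their summits had medians of 1.95, 1.87 and 1.41 times the library median. The remaining 5 were 4 bins long each. They lay on chromosome 19 from 48200001 with 29 regions, chromosome 17 from 76400001 with 27, chromosome 12 from 132200001 with 24, chromosome 16 from 2700001 with 24 and chromosome 11 from 62500001 with 23. In these 5 the median summit was between 0.934 times (chromosome 16) and 1.42 times (chromosome 19) the library median, so long runs were not always high ones.

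The most crowded bin was on chromosome 5 from 49400001 to 49500000, in a run of 3 bins from 49300001 to 49600000 with 53 regions. It held 31 clustered regions, and the lists had 31 and 31 peaks there in asynchronous and 32 and 32 in mitotic cells. Almost every peak in the bin was thus recurrent, whereas the median cluster bin had 5 recurrent regions beside list totals of 13 and 11 peaks (asynchronous) and 11 and 14 peaks (mitotic). Spacing was uneven in the first part of the bin, with starts between 1220 and 7281 bp apart. From 49475443 the starts then followed at steps of 2039, 2039, 2028, 2049 and 2039 bp, and after 3 other intervals at 2039, 2039 and 2038 bp. Of the 30 intervals between neighbouring starts in the bin, 9 were within 15 bp of 2039 bp, and 5 of 2835 (0.176%) were so in all other cluster bins. The bin and this step length were singled out after their values were seen. Repeat content was not tested, since no sequence of hs1 was used here.

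One region stood above the rest of that bin. The region from 49433862 to 49434358 had 308 and 291 fragments in asynchronous and 343 and 342 in mitotic cells, 13.2 times the library median. The region from 49477482 to 49478039, on the first 2039 bp step, had 22 and 26 against 23 and 30 fragments. The other 29 had pileups between 15 and 89 fragments. The bin's summed pileups of 1322 and 1201 in asynchronous and 1411 and 1533 in mitotic cells varied less between libraries than those of the chromosome 11 run, at 4618, 3875, 3639 and 6124 in the same order. Relative to the library median, mitotic replicate 3 was the highest in the bin, at 1.75, and mitotic replicate 4 the lowest, at 1.18, with the asynchronous libraries between them at 1.32 and 1.38. The libraries of 1 state were therefore farther apart here than the states.

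**Figure D2:**
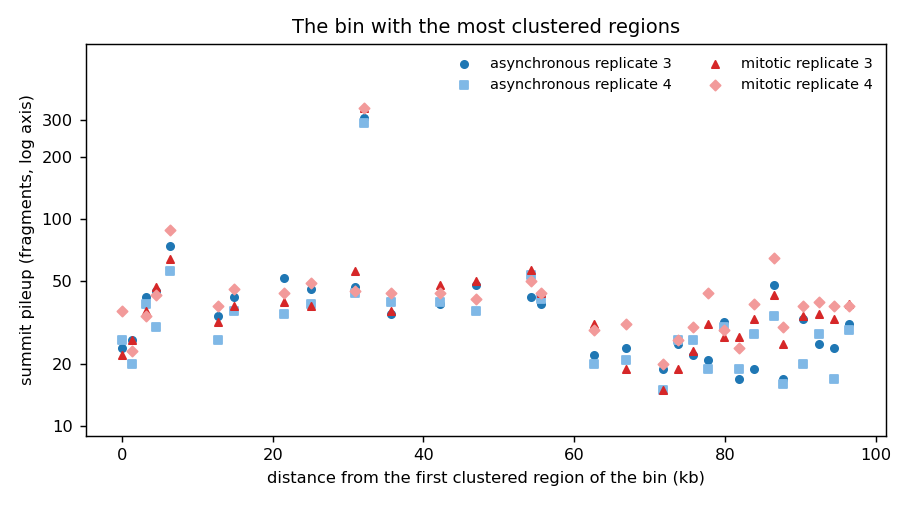
Summit pileup in fragments (vertical axis, logarithmic) of the 31 clustered regions in the most crowded bin of chromosome 5, by distance in kb from the first region, with 1 symbol per library. A single region stands at 291 to 343 fragments, and even steps are seen in 2 stretches, from 73728 to 83922 bp and from 90381 to 96497 bp.

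Over all cluster bins, midpoints of neighbouring recurrent regions lay 10949 bp apart at the median (quartiles 6097 and 19364 bp, smallest 654 bp, largest 79843 bp). Of the 2865 intervals, 7.09% were under 2 kb and 23.6% were over 20 kb. Counting every peak of a list, recurrent or not, the median distance between summits in cluster bins was 5783 and 6450 bp in asynchronous and 6860 and 5482 bp in mitotic cells. The means of 6116.5 ± 472 and 6171 ± 974 bp (SD, n = 2) did not differ beyond the spread (exact two-sided permutation p = 1). The deeper library of each state had the closer summits. With 2 libraries against 2 the smallest p this test can give is 0.333.

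Clustered regions had higher summits than other recurrent regions in every library. The median pileup was 32 and 27 fragments in asynchronous and 26 and 42 in mitotic cells, against 24 and 20, and 19 and 32, over the 16390 other recurrent regions. In multiples of the genome background, which stands for depth, clustered summits were at 23.2, 23.2, 22.2 and 23.5, and the others at 17.4, 17.2, 16.2 and 17.9. Their ratio averaged 1.34 ± 0.0118 (asynchronous) and 1.34 ± 0.0395 (mitotic, SD, n = 2), with no difference beyond the spread (exact permutation p = 1). The increase was gradual: with 1 recurrent region per bin the median summit was 0.840 and 0.810 times the library median in asynchronous and 0.850 and 0.848 times in mitotic cells. With 10 or more it was 1.68 and 1.71, and 1.88 and 1.56 times.

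**Figure D3:**
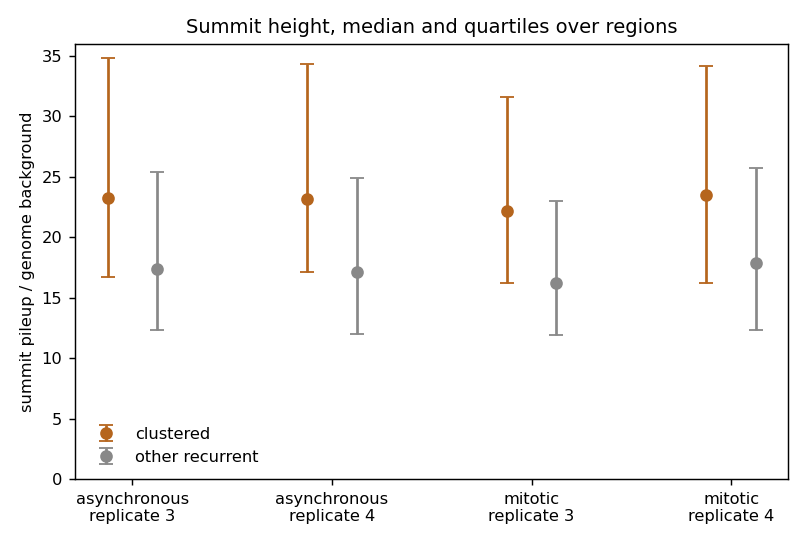
Summit pileup divided by the genome background (vertical axis) for clustered and other recurrent regions in each library. Points are medians and bars are quartiles over regions. Clustered medians lie between 22.2 and 23.5 and the others between 16.2 and 17.9.

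Local background rose with crowding as well, in bins that were chosen for their many peaks. How far reads of neighbouring peaks raise it was not tested. At clustered regions it was 4.42 and 4.43 times the genome background in asynchronous and 4.11 and 4.41 times in mitotic cells, against 2.46 and 2.43, and 2.37 and 2.54 times, at other recurrent regions. The ratio of clustered to other local background was 1.81 ± 0.0163 (asynchronous) and 1.74 ± 0.00253 (mitotic, SD, n = 2), and the groups did not overlap (exact permutation p = 0.333, the smallest possible). The authors' fold enrichment, summit over local background, was accordingly lower in clusters, with medians of 4.59 and 4.54 against 5.71 and 5.47 in asynchronous lists and 4.53 and 4.79 against 5.41 and 5.99 in mitotic lists. A peak must rise above its local background to be called, and the part of this in the higher summits was not tested.

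**Figure D4:**
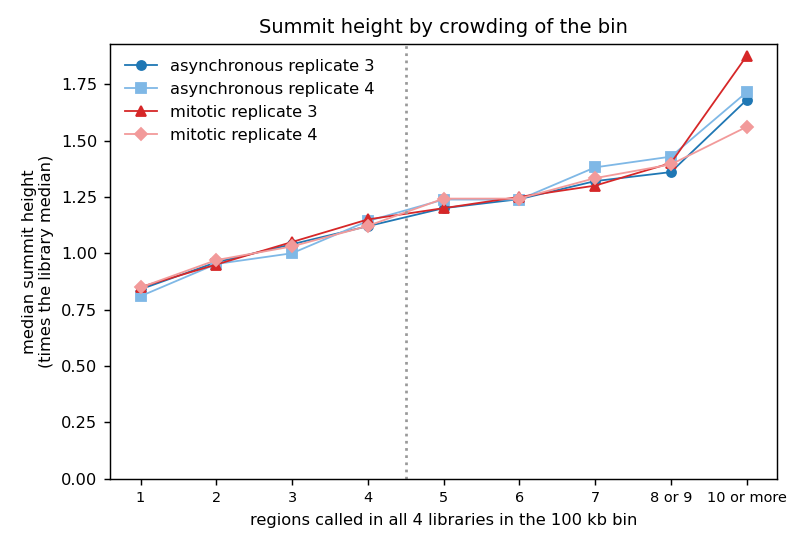
Median summit height (vertical axis, multiples of each library's median over recurrent regions) by the number of recurrent regions in the 100 kb bin (horizontal axis), 1 line per library. Bins to the right of the dotted line are clusters, and medians go from 0.810 to 0.850 with 1 region up to 1.56 to 1.88 with 10 or more.

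Width did not set clustered regions apart. Median peak width was 508.5 and 437 bp in asynchronous and 461 and 589 bp in mitotic cells, against 502 and 434, and 470 and 596 bp, at other recurrent regions. Their ratio averaged 1.0099 ± 0.00427 (asynchronous) and 0.985 ± 0.00524 (mitotic, SD, n = 2), and the groups did not overlap (exact permutation p = 0.333). The mitotic ratio was lower by 0.0254, a difference of -0.0254, and the narrowest peak of the lists also differed, at 174 and 169 bp in asynchronous and 183 and 182 bp in mitotic libraries.

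The highest summits among clustered regions were on chromosomes 11, 10 and 5. The region on chromosome 11 from 3467682 to 3469008 had 1535 and 1102 fragments in asynchronous and 881 and 1530 in mitotic cells, or 56.9 ± 6.31 and 45.2 ± 1.64 times the library median (SD, n = 2). Relative heights did not overlap between the states, but the difference of -0.33 log2 units (SE 0.12) did not pass (limma adjusted p = 0.303). The second, on chromosome 11 from 3862462 to 3863525, had 1242 and 989 against 799 and 1486 fragments. The third, on chromosome 10 from 133397192 to 133397958, had 999 and 821 against 630 and 1123. Relative to the library median both were lower in each mitotic than in either asynchronous library, by 0.19 and 0.27 log2 units at the means, and neither passed (limma adjusted p = 0.687 and 0.476). On chromosome 5 from 135452141 to 135452696 there were 564 and 516 against 480 and 868 fragments, and on chromosome 11 from 3905552 to 3907182 there were 399 and 320 against 329 and 574. The first of these overlapped between the states in relative height, and the second was 15.6 ± 0.510 and 16.9 ± 0.667 times the library median (SD, n = 2) with no overlap and did not pass (limma adjusted p = 0.871). Heights above 4 times the median were reached by 117 clustered regions (3.41%) and by 264 of the others (1.61%).

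Regions of 1 bin were only loosely alike in height. The highest summit of a bin was a median of 3.001 times its lowest (quartiles 2.28 and 4.31). The intraclass correlation of log2 height within bins, which is 1 where all regions of a bin have the same height and 0 where bins do not differ, was 0.157. For the mitotic minus asynchronous difference it was 0.0875.

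Single clustered regions seldom differed between the states in relative height. Only regions with a peak in all 4 libraries were compared, so sites called in 1 state alone could not enter. Heights were relative to each library's median, so a change shared by all recurrent regions could not show. By limma with Benjamini-Hochberg adjustment over all 19822 recurrent regions, 1 of the 3432 clustered regions passed, where 0.0656% of all regions did. It was higher in mitotic cells, as were 0.0504% of all regions, and 0 clustered regions passed as higher in asynchronous cells, against 0.0151% of all. An unadjusted p under 0.05 was found in 303 (8.83%), against 8.93% of all regions. Relative heights of the 2 groups did not overlap in 1329 regions (38.7%, against 37.3% of all). Of these, 526 were higher in mitotic cells (15.3%, against 17.1%) and 803 in asynchronous cells (23.4%, against 20.2%). Without scaling, where differences in depth remain, these counts were 432 (12.6%, against 14.2% of all) and 72 (2.10%, against 2.19%). The median difference was -0.04 log2 units over clustered and -0.02 over all regions, and 7.46% of clustered regions were more than 0.5 log2 units apart, against 10.6% of all. The SD of the difference was 0.28 log2 units over clustered and 0.32 over other recurrent regions, and these spreads were not compared at matched heights. The count that passed went from 0 to 4 over the alternatives run, some of which changed only which regions counted as clustered.

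**Figure D5:**
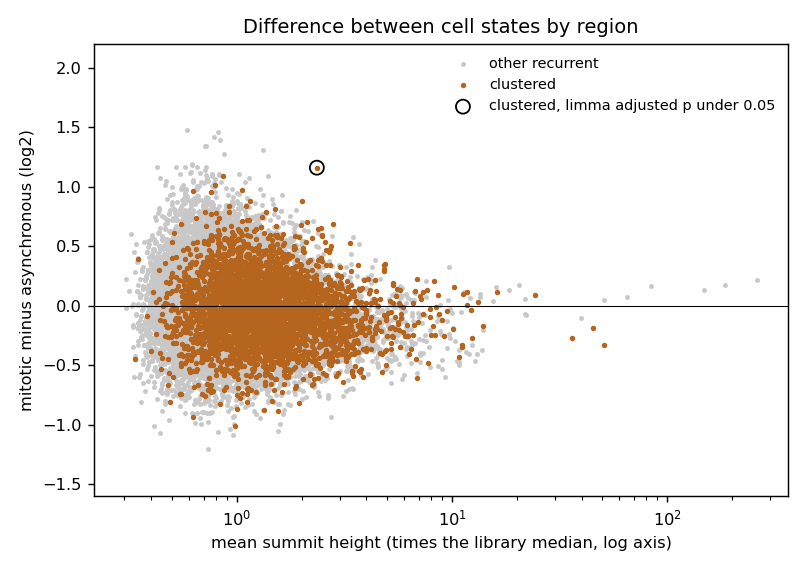
Mitotic minus asynchronous difference in log2 summit height (vertical axis) against mean height in multiples of the library median (horizontal axis, logarithmic), 1 point per recurrent region. Clustered regions lie within the spread of the others, and the circled one is the only clustered region with a limma adjusted p under 0.05.

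The region that passed was on chromosome 8 from 144656976 to 144658073, in a bin with 7 clustered regions. It had 52 and 25 fragments in asynchronous and 71 and 115 in mitotic cells, or relative heights of 1.64 ± 0.629 and 3.52 ± 0.0461 (SD, n = 2). Both mitotic libraries were above both asynchronous ones, and the difference was 1.16 log2 units (SE 0.20, limma adjusted p = 0.000507). It was 0.76 (adjusted p = 0.263) without asynchronous replicate 4, the lowest library, and 1.15 (adjusted p = 0.0867) without mitotic replicate 3. It also did not pass with summits scaled to the genome background (1.13, adjusted p = 0.0548), without scaling (1.33, adjusted p = 1) or without a trend in the variance prior (1.16, adjusted p = 0.367). At a -log10 q of at least 5 this region was no longer called in all 4 libraries.

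The next smallest p-values did not pass. Chromosome 2 from 36467595 to 36468418 had 37 and 31 fragments in asynchronous and 59 and 83 in mitotic cells (0.88 log2 units, SE 0.21, limma adjusted p = 0.059). Chromosome 19 from 13089411 to 13090318 had 14 and 13 against 26 and 40, and chromosome 1 from 21754851 to 21755818 had 15 and 20 against 33 and 44. Among those higher in asynchronous cells, chromosome 19 from 16245365 to 16246019 had 215 and 177 fragments in asynchronous and 112 and 185 in mitotic cells (-0.60 log2 units, SE 0.15, limma adjusted p = 0.0819). Chromosome 12 from 52023409 to 52024562 had 61 and 57 against 28 and 50, and chromosome 6 from 41975270 to 41975956 had 57 and 41 against 27 and 32. In all 6 the relative heights of the groups did not overlap, as in 37.3% of all recurrent regions. The 6 were picked for their small p, so this adds nothing to the test. The 3 higher in asynchronous cells passed when lists were limited to a common smallest peak width (limma adjusted p = 0.0363, 0.0393 and 0.0426). In that setting the difference of every named region moved down by a like amount, so the change was not particular to these 3. It went from -0.60 to -0.66 at the chromosome 19 region from 16245365 and from 0.88 to 0.83 at the chromosome 2 region.

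Whole clusters did not differ by the test either, again in heights relative to the library median. A change common to all bins with a recurrent region could not show here. With summits summed per bin, 0 of the 567 cluster bins passed limma, as did 0% of all 10112 bins with a recurrent region, and an unadjusted p under 0.05 was found in 70 cluster bins (12.3%, against 9.95% of all). The lowest adjusted p among cluster bins, 0.112 by limma, belonged to chromosome 19 from 16200001 to 16300000, with summed pileups of 403 and 306 in asynchronous and 220 and 378 in mitotic cells (-0.44 log2 units, SE 0.10). The bin on chromosome 2 from 36400001 to 36500000 had 241 and 197 against 248 and 421 (0.41, SE 0.11, limma adjusted p = 0.151). No cluster bin was more than 0.5 log2 units apart, against 8.15% of all bins. The range was -0.44 to 0.41, against -1.19 to 1.47 over all bins. Cluster bins sum 5 or more regions, and their median SE was 0.11, against 0.23 over all bins. Shares of cluster bins and of all bins were not compared at matched SE. The groups did not overlap in 271 cluster bins (47.8%, against 39.2% of all bins), of which 187 were lower in mitotic cells (33.0%, against 20.4% of all bins) and 84 were higher (14.8%, against 18.7%). Scaled to the genome background, 217 were lower (38.3%, against 24.0%) and 53 higher (9.35%, against 15.05%). Without scaling, 0 cluster bins were lower (against 1.38%) and 17 were higher (2.998%, against 12.8%). Differences in depth remain there, and the deepest library was mitotic replicate 4, with a median pileup of 33 over recurrent regions. The lean towards lower bins was thus seen only with scaling, and the unscaled counts cannot test its direction.

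The long runs leaned in different directions by small amounts. In the run at the end of chromosome 5, 78 of 119 regions were higher in mitotic cells, with a median difference of 0.08 log2 units, and in the chromosome 11 run from 3200001 it was 36 of 48, with 0.14. Over all clustered regions the count was 1503 of 3432 (43.8%) and over all recurrent regions 47.5%, but without scaling it was 2280 of 3432 (66.4%) and 13632 of 19822 (68.8%). In the 3 chromosome 1 runs 9 of 30, 9 of 28 and 10 of 34 regions were higher in mitotic cells, with medians of -0.10, -0.10 and -0.15. Regions of a run share their surroundings and their libraries and are not replicates, and none of the regions in these 5 runs passed limma. Without scaling, the median of all recurrent regions moved from -0.02 to 0.15 log2 units. Relative to that median, 79 of 119 and 38 of 48 were above it in the chromosome 5 and 11 runs, and 9, 10 and 10 in the chromosome 1 runs, whose own medians without scaling were above 0, at 0.07, 0.06 and 0.02.

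Cluster bins, which were chosen for many recurrent peaks, also held more peaks per Mb seen in a single list. Such peaks numbered 35.8 and 24.8 per Mb in asynchronous and 22.3 and 40.6 per Mb in mitotic cells, against 21.2, 13.98, 15.03 and 24.3 per Mb in other bins that had any merged region. Their ratio averaged 1.73 ± 0.0574 (asynchronous) and 1.58 ± 0.132 (mitotic, SD, n = 2). The groups did not overlap (exact permutation p = 0.333), and mitotic replicate 3, at 1.49, was the lowest. In all, 7.99% and 9.05% of asynchronous and 8.30% and 7.65% of mitotic peaks lay in cluster bins, and these shares did not differ beyond the spread (8.52 ± 0.746% and 7.98 ± 0.466%, SD, n = 2; exact permutation p = 0.667). Regions with a peak in both libraries of 1 state and neither of the other were 2.14% (asynchronous, 296 regions) and 2.93% (mitotic, 406 regions) of the 13853 merged regions in cluster bins, and 1.64% and 2.80% elsewhere. As a share, regions called in a single list were fewer in cluster bins, at 50.5% of merged regions, against 73.1% elsewhere. The choice of bins by regions called in all 4 lists lowers this share.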

How the data were processed

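The tools named by the submitters' processing notes are MACS2, Bowtie2, fastp and bedtools, and the build is hs1. Versions, parameters, any control, duplicate handling and use of the spike-in were not stated there. Whether pileups count fragments or extended reads is also not stated, and they are called fragments here. The authors deposited 1 narrowPeak list per library, with 101132 and 76467 peaks for asynchronous replicates 3 and 4 and 78908 and 114846 for mitotic ones. Deposited values are the authors' fold enrichment, the -log10 p-value and q-value, and a score that was not used. The fold and -log10 p are each peak's own values.

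Pileups and local background were recovered from fold = (pileup + 1) / (background + 1) and the Poisson p. All pileups under 200 came out whole within 0.05, as did 88% to 97.3% of higher ones. The smallest background of a list (1.38, 1.17, 1.17 and 1.79 fragments) stands for depth. Library totals were not used here. Where a list had several peaks in a region, the highest summit was taken and widths were summed.

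Limma 3.58.1 (trended prior) was fitted to log2 pileups divided by the library median. The 2 residual degrees of freedom were joined by 398 of the prior for regions and 30.2 for bins, so SE and p rest mostly on spread pooled over regions. Pileup recovery and fits were tested on simulated data, the fits with Poisson counting error only. Spread between libraries beyond counting was not simulated. Single values used exact permutation tests. Named regions were the 10 longest runs, 10 fullest bins, 5 highest regions, and called regions or the 3 smallest p in each direction. Members and rules were chosen with earlier results of these data known. Genes and sequences were not assigned, since the reference tables are on GRCh38, and the gene lists planned were not used. Alternatives covered peak threshold, list length, width, bin offset, size and minimum, scaling, prior, pseudocount, replicate block and libraries left out.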

Additional observations from a re-analysis of the deposited data

How the results depend on the processing

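The number of clustered regions followed the rule: 640 regions in 108 bins and 95 runs at a -log10 q of at least 5, 1702 in 138 bins and 107 runs for 200 kb bins with 10 or more, 5948 in 1196 bins and 863 runs with 4 or more per bin, and 697 in 74 bins and 62 runs with 8 or more. Bin offset, size and minimum changed only which regions counted as clustered, since limma was fitted to the same recurrent regions. With 8 or more per bin the chromosome 8 region kept its limma adjusted p of 0.000507. It left the count because its bin held 7 clustered regions. Clustered regions that passed limma numbered 0 at a -log10 q of at least 5, with 8 or more per bin, with background scaling, without scaling and without a trend, 2 with offset bins or 4 or more per bin, 4 with a common smallest width, and 0 to 4 with a library left out. They were 0 without asynchronous replicate 4 or mitotic replicate 3 and 4 without mitotic replicate 4. With the replicate block 1 region and 1 cluster bin passed, the bin being chromosome 19 from 16200001 to 16300000 (-0.44 log2 units, limma adjusted p = 0.0335, against 0.0559 to 1 under its other alternatives). Same-numbered libraries deviated with r = -0.05 over regions, so the numbers are not taken as pairs. With a library left out 0 or 1 bins passed. The height ratio differed by -0.00121 between states, by 0.0136 at a -log10 q of at least 5, and by -0.0292 to 0.0267 with a library left out. The difference in summit spacing of 54.5 bp became -324.5 bp at a -log10 q of at least 5, -202.2 bp with a common smallest width, and ran from -634.5 to 743.5 bp with a library left out. The differences in peak share, width ratio and density ratio kept their direction in every setting run, and with a library left out ran from -1.07 to -0.0174 percentage points, -0.0291 to -0.0217 and -0.245 to -0.0575. Of 271 values of named regions and bins under alternatives, 262 kept direction and call, 5 lost it, 4 gained it and 0 changed sign. Values of regions under other bin offsets, sizes and minima, and of bins under other minima, came from unchanged fits and could not change. All losses were at the chromosome 8 region. The other named regions and bins had not passed in the main fit, so for them a kept call means that they still did not pass. Named regions no longer called in all 4 libraries were not counted, among them the chromosome 8 region at a -log10 q of at least 5. Without the evenly stepped run of chromosome 5, an alternative chosen after seeing the data, 1 region passed and the spacing differed by 63.25 bp. Quartiles of clustered summits ran from 19 to 61 fragments, and the counting error of such summits limits what can be told for 1 region.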

Other observations

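Chromosome X was outside the rule. By the same steps it had 491 recurrent regions among 6125 merged ones, and 47 of these (9.57%) lay in 9 bins with 5 or more, the fullest holding 6.

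A bin could be rich in peaks without being a cluster. In the median cluster bin every list had at least 10 peaks, and 251 other autosomal bins also reached that number in every list. Of these, 104 held 4 recurrent regions and 62 held 2 or fewer.

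Another densely set bin lay on chromosome 1 from 127400001 to 127500000, with 12 clustered regions and peaks numbering 24 and 19 in asynchronous and 24 and 22 in mitotic lists. Its summits were low, with a median of 0.882 times the library median, and mitotic replicate 3 stood highest there, at 1.32 times, against 0.773 times in mitotic replicate 4 and 0.940 and 0.738 times in the asynchronous libraries. The same order of the mitotic libraries was seen in the fullest bin of chromosome 5.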
